A study of Mus musculus with 200 samples.

Results

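The myogenic regulators described here are Myod1, Myf5, Myf6 and Myog, the 4 muscle-specific basic helix-loop-helix factors, with Mef2c, Des and Chrna1. They were chosen by gene symbol and not by a threshold on their values, although earlier results of these data were known. They are 7 of the 22033 genes in the tables. All 7 were found in the expression and allele tables of both generations. Each library was one whole mouse embryo at E11.5, read by 3SEQ, which sequences the 3′ ends of polyadenylated transcripts. B6 stands for C57BL/6J and Cast for CAST/EiJ, and the mother is listed first in each cross. The F1 generation held 8 B6 × Cast and 8 Cast × B6 embryos from 4 litters, all of them heterozygous at every autosomal locus. The N2 generation came from backcrosses to B6, with 89 genotyped embryos carried by B6 females (B6 × F1) and 65 carried by F1 females and sired by B6 males (F1 × B6), in 29 litters and 14 sequencing lanes. The F1 parents of the backcross were themselves born to B6 females and Cast males. No embryo carried an engineered allele or received a treatment. Somite numbers were given for 13 F1 embryos (41 to 63 somites) and for 147 of the genotyped N2 embryos (42 to 57 somites). Depth ranged from 15703888 to 38234229 reads on genes in F1 and from 245220 to 5370322 in N2, so that F1 values carry less counting error.

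Skeletal muscle of the trunk and limbs is made from somites. In textbook accounts Myf5, Myf6 (Mrf4) and Myod1 commit progenitors to the muscle fate, Myog (myogenin) drives their differentiation, and Mef2c is a MADS-box factor that acts with them on muscle promoters. Des encodes desmin, the muscle intermediate filament, and Chrna1 encodes the alpha subunit of the muscle nicotinic acetylcholine receptor. Mef2c is also used in heart, endothelium and neurons, and Des in heart and smooth muscle. In a whole embryo, fewer cells of a type and less RNA per cell cannot be told apart. Levels are given in RPM, reads per 1000000 reads on genes. RPM is not scaled to transcript length, so levels were not compared between genes.

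In mm9, Myod1 lies at chr7:53631844-53634462 on the plus strand and Myog at chr1:136186581-136189124 on the plus strand. Des lies on the same chromosome as Myog at chr1:75356904-75365154, also on the plus strand. Myf5 (chr10:106919964-106923190) and Myf6 (chr10:106929916-106931785) are neighbours on the minus strand, 6725 bases apart. Mef2c spans chr13:83643033-83806684 on the plus strand and Chrna1 chr2:73401272-73418395 on the minus strand. RefSeq promoter sequences (GRCm38.p6) matched 5 of the 7 members, all but Myod1 and Myf6. The sequences below are the 250 bases before the start of a differentiation factor, a receptor gene and a structural gene, shown because the slopes of these 3 genes on somite number are set side by side later. E-boxes, the CANNTG hexamer that myogenic helix-loop-helix factors bind, are in capitals. The hexamer reads the same form on both strands.

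Myog, chr1:134289754-134290003, plus strand: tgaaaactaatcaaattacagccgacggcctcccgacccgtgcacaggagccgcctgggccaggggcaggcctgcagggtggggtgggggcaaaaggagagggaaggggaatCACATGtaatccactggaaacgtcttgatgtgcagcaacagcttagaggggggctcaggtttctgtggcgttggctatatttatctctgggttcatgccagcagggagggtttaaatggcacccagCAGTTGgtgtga
Chrna1, chr2:73580339-73580588, minus strand: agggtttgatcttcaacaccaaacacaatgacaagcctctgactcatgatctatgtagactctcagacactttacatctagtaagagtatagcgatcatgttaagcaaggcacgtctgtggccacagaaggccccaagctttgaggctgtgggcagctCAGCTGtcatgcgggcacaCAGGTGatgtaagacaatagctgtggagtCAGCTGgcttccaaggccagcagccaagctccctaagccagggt
Des, chr1:75360042-75360291, plus strand: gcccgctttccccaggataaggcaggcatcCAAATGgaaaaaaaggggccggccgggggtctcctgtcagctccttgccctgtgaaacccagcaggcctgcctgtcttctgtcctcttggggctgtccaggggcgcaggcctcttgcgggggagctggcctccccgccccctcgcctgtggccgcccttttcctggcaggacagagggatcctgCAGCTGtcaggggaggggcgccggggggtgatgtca

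The Myog window held 2 E-boxes, 138 and 12 bases before the start. The Chrna1 window held 3, at 92, 73 and 44 bases, of which 2 read CAGCTG. The Des window held 2, at 220 and 36 bases, and the nearer one read CAGCTG. Myf5 had 0 E-boxes in this window, and the 3 annotated Mef2c starts had 2, 0 and 1. At least 1 E-box occurred in 66.2% of the 32851 promoter windows of the same length, at least 2 in 31.8%, and CAGCTG in 13%. An E-box in such a window is therefore common, and a match is a description only.

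To ask how the members varied with developmental stage, F1 litters were considered first. Myod1 and Chrna1 were highest in the oldest litter and lowest in the youngest, with no overlap between those litters. Myod1 read 36.1, 37.1 and 38.8 RPM in the 3 embryos of the oldest B6 × Cast litter (58 and 63 somites in the 2 counted embryos), and 20.1, 20.3, 28.5, 19.8 and 20.4 RPM in the other B6 × Cast litter (48 to 50 somites). In the Cast × B6 litter of 41 to 43 somites it read 9.27, 11.0, 10.6 and 12.6 RPM, and in the one of 46 to 48 somites 17.4, 23.3, 15.9 and 15.2 RPM. The oldest litter lay above every other embryo and the youngest below every other. Chrna1 read 7.13, 6.63 and 5.36 RPM in the oldest litter, 3.24, 2.45, 2.74, 2.73 and 2.50 RPM at 48 to 50 somites, 2.08, 1.93, 2.13 and 1.67 RPM at 46 to 48 somites and 1.01, 1.43, 1.04 and 1.46 RPM at 41 to 43 somites. The 4 litters did not overlap for this receptor subunit. Mothers and litters were nested in cross, and both younger litters had Cast mothers. The labels also give a run on the GAIIx sequencer for every litter except the Cast × B6 litter of 46 to 48 somites. Stage, litter, run and cross could thus be separated only in part.

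**Figure D1:**
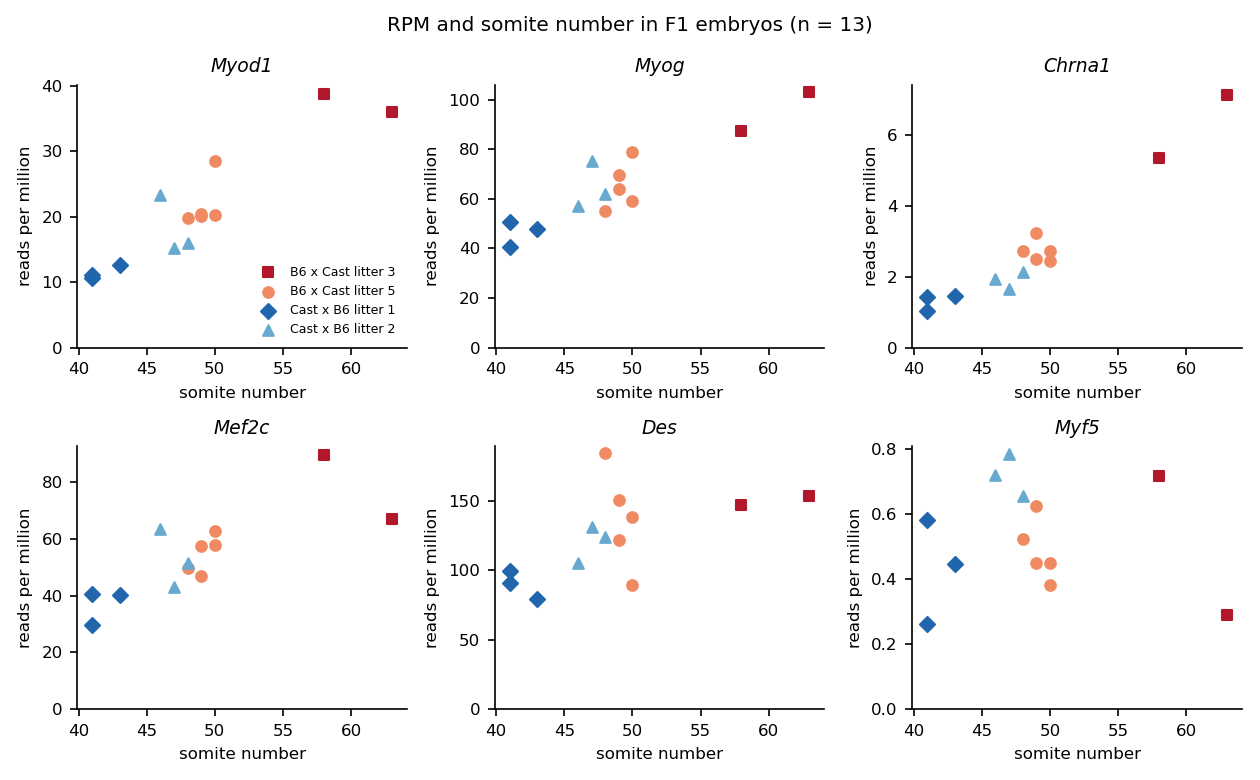
Reads per 1000000 (vertical axis) against somite number (horizontal axis) in the 13 F1 embryos with a somite number, with colours and symbols for the 4 litters and each point an embryo, for 6 members. Myod1 and Chrna1 reached their highest values in the litter of 58 and 63 somites, while Myf5 stayed under 1 RPM throughout.

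Myog averaged 41.1 ± 11.4 RPM (SD, n = 4) in the youngest F1 litter and 91.9 ± 9.68 RPM (n = 3) in the oldest. Between them, Myog averaged 71 ± 14.5 RPM (n = 4) at 46 to 48 somites and 65.3 ± 9.36 RPM (n = 5) at 48 to 50 somites, and these intermediate litters overlapped. The litter of 46 to 48 somites, which reached 89.5 RPM, also overlapped the oldest, which began at 85.2 RPM. Mef2c averaged 38.9 ± 6.43, 50.6 ± 9.39, 55 ± 6.47 and 90.1 ± 23.4 RPM from the youngest litter to the oldest. Its embryos overlapped between all neighbouring litters except the oldest pair. Des averaged 92 ± 9.12, 120 ± 11.2, 137 ± 35.1 and 142 ± 15.2 RPM in the same order, and its embryos overlapped between all neighbouring litters except the youngest pair. Summed heart markers ran the other way, with medians of 1099, 903, 881 and 698 RPM from the youngest litter to the oldest. Smooth muscle markers had medians of 358, 354, 355 and 585 RPM in that order, and were thus highest in the oldest litter. Neuron markers had medians of 902, 894, 1049 and 1228 RPM, also highest there, and endothelial markers 133, 166, 145 and 152 RPM. The part of these tissues in the values of Mef2c and Des, which several of them express, was not tested.

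An edgeR quasi-likelihood fit on the F1 counts, with cross as a factor, called 1080 of 14154 genes against somite number at an adjusted p under 0.05, which is 7.63% of those tested (4.61% rising and 3.02% falling). Of the 6 members tested, 2 were called, both rising. Chrna1 rose by 0.09 ± 0.01 log2 units per somite (SE, edgeR adjusted p = 0.00307), a 1.83-fold rise per 10 somites, and Myod1 by 0.06 ± 0.01 (adjusted p = 0.0281), a 1.51-fold rise. Myog had a slope of 0.04 ± 0.01 (adjusted p = 0.0522) and Mef2c one of 0.03 ± 0.01 (adjusted p = 0.15). Des (adjusted p = 0.902) and Myf5 (adjusted p = 0.99) had slopes near 0, and Myf6 was under the minimum of 0.5 RPM. Both calls rested on the oldest litter, since without it the edgeR adjusted p was 0.061 for Myod1 and 0.159 for Chrna1, in a fit that called 19.7% of genes. The slopes without it were 0.09 and 0.07. When cross was dropped from the fit, which called 21.1% of genes, Myog (adjusted p = 0.00398) and Mef2c (adjusted p = 0.00981) were also called.

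In the larger N2 generation, Myog, Myod1, Mef2c and Chrna1 rose with somite number among embryos of the same lane and mother, and Des and Myf5 did not pass the test. From 42 to 45 somites, Myog averaged 37.4 ± 13.8 RPM (SD, n = 21). It averaged 55.9 RPM at 46 to 47 somites, 74.8 RPM at 48 to 49, 79.7 RPM at 50 to 51 and 78.2 ± 18.6 RPM (n = 28) at 52 to 57. Across all 154 embryos it ran from 5.29 to 324 RPM, with a median of 63.5 RPM. The youngest embryos lay lowest as a group, and the 3 oldest somite ranges had like means. Myod1 averaged 10.7 ± 6.20 RPM in the youngest range and 16.7 ± 6.79 RPM in the oldest, with 3.08 to 25.2 RPM in the first and 3.42 to 30.9 RPM in the second. Chrna1 averaged 0.756 ± 0.824 RPM and 1.99 ± 1.32 RPM in the same ranges, and both held embryos with 0 reads. Mef2c averaged 32.6 ± 11.7 and 41.1 ± 19.7 RPM. For each of these 4 genes single embryos of the youngest and oldest ranges overlapped.

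**Figure D2:**
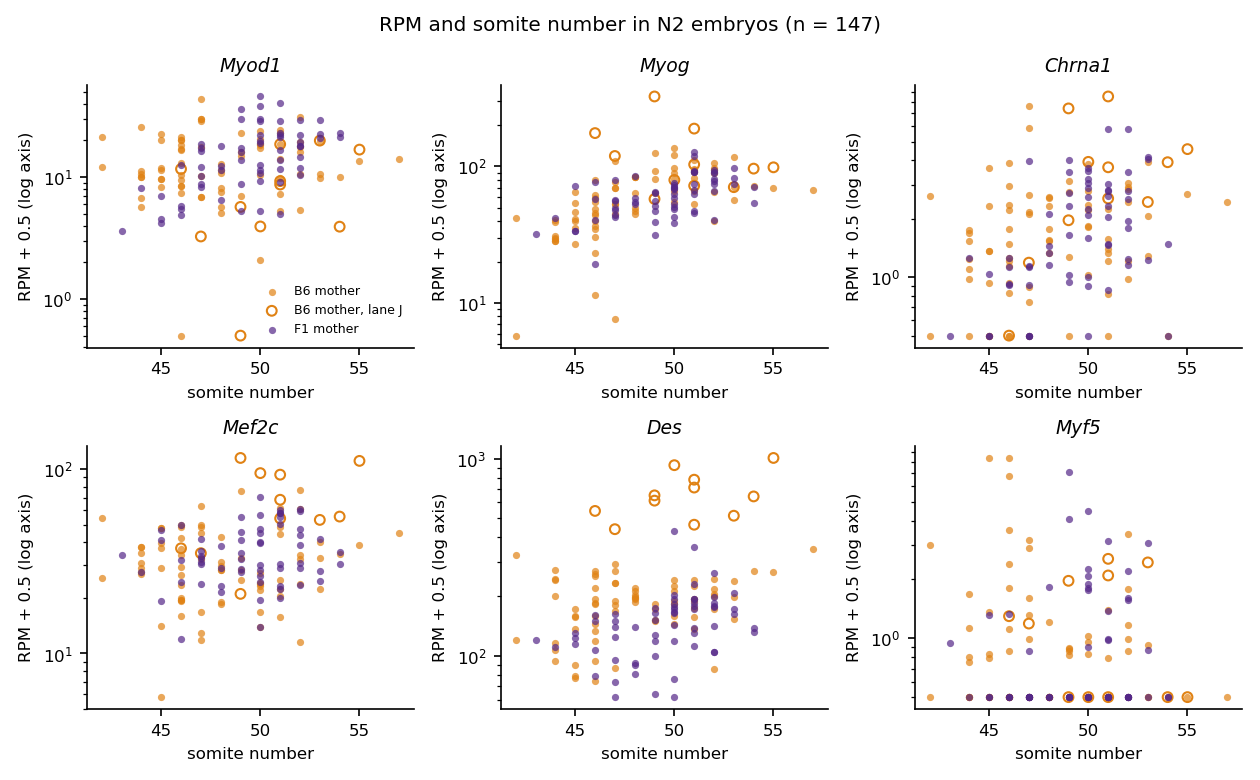
RPM plus 0.5 of 6 members on a log axis against somite number in the 147 genotyped N2 embryos with a somite number, coloured by mother, with open circles for lane J. Myog climbs up to about 50 somites, and the open circles lie above the other embryos for Des.

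The edgeR fit on N2 counts, with lane and mother as factors, called 1238 of 14195 genes, or 8.72%, with 691 rising (4.87%) and 547 falling (3.85%). Of the 6 members tested, 4 were called and all 4 rose. Chrna1 had the steepest fitted slope, 0.16 ± 0.04 log2 units per somite (SE, edgeR adjusted p = 0.00996). This is 3.02-fold per 10 somites, with a 95% interval of 1.65 to 5.55. Myod1 rose by 0.10 ± 0.02 (adjusted p = 0.000589), or 1.99-fold per 10 somites with an interval of 1.48 to 2.69. Myog rose by 0.09 ± 0.02 (adjusted p = 0.00109) and Mef2c by 0.06 ± 0.02 (adjusted p = 0.0255), which are 1.82-fold and 1.49-fold per 10 somites. Des had a slope of 0.01 ± 0.01 (adjusted p = 0.802), and the interval of its fold per 10 somites ran from 0.873 to 1.29. Myf5 had a slope of -0.02 ± 0.06 (adjusted p = 0.92). Myf6 fell short of the minimum, and with no minimum its slope was -0.24 ± 0.09 (adjusted p = 0.108). Embryos of a litter share a mother, so that the p-values treat as separate some embryos that share a litter.

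**Figure D3:**
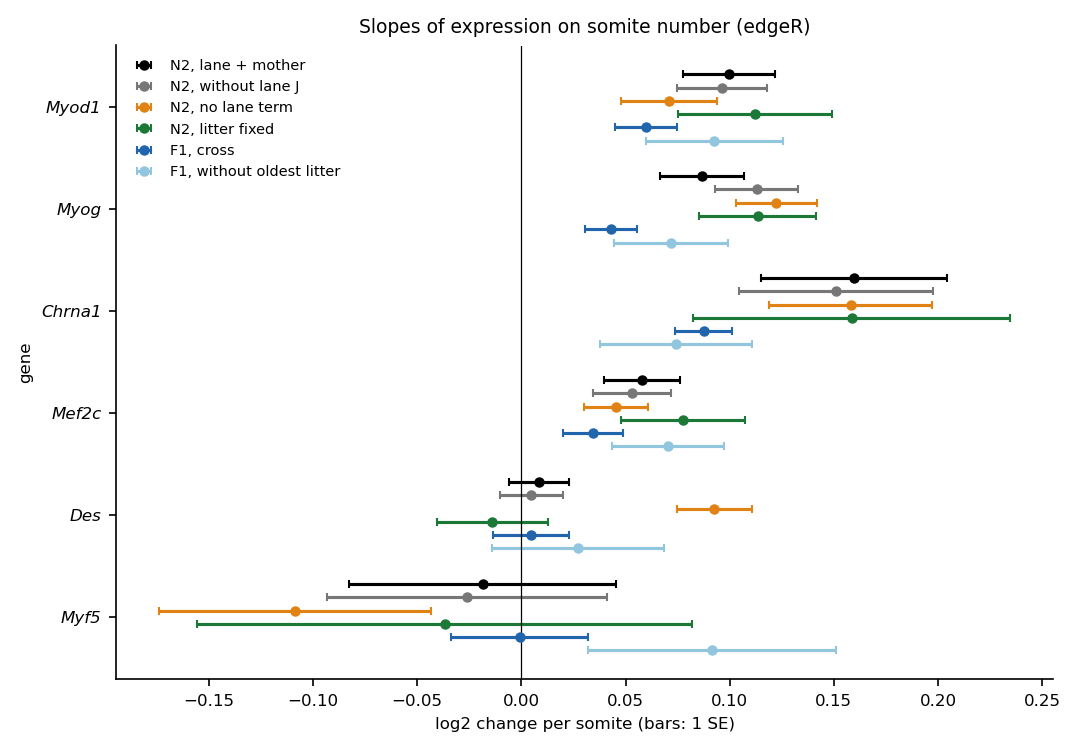
Change in log2 expression per somite (horizontal axis) for each member in 4 edgeR fits of N2 and 2 of F1, a colour for each fit, with bars of 1 SE. Slopes of Chrna1, Myod1, Myog and Mef2c lie above 0 in every fit drawn, while Des lies near 0 in the main fits and at 0.09 in N2 once lane is left out.

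Within each flowcell of the N2 embryos the slopes of Chrna1 and Myog kept their size while fewer calls were made. Chrna1 was called in neither flowcell, with slopes of 0.16 ± 0.06 in flowcell 1 (edgeR adjusted p = 0.0786) and 0.17 ± 0.06 in flowcell 2 (adjusted p = 0.191). Myog had a slope of 0.09 in each, called in flowcell 1 (adjusted p = 0.00102) and not in flowcell 2 (adjusted p = 0.208). Myod1 had slopes of 0.14 (adjusted p = 2.89e-05) and 0.06 (adjusted p = 0.449). Mef2c had a slope of 0.01 (adjusted p = 0.806) in flowcell 1 and 0.10 (adjusted p = 0.00909) in flowcell 2, and without lane J its slope was 0.05 (adjusted p = 0.0552). The difference between flowcells was not tested. With litter as a fixed term in place of lane and mother, only differences between littermates remained. Some litters were spread over several lanes, so these differences include those between lanes. Myog alone was called in this fit (0.11 per somite, edgeR adjusted p = 0.0166). The slopes of the other 3 were no smaller than in the main fit to 2 decimals, at 0.11 for Myod1 (adjusted p = 0.122), 0.16 for Chrna1 (adjusted p = 0.399) and 0.08 for Mef2c (adjusted p = 0.223), with larger SEs. With litter as a random block all 4 calls were kept. Over all genes these fits called 8.59% without lane J, 10.5% in flowcell 1, 2.23% in flowcell 2, 0.979% with litter fixed and 6.45% with litter as a random block. Fitted on embryos of B6 mothers alone, where 4.62% of genes were called, Myod1 (adjusted p = 0.00668) and Chrna1 (adjusted p = 0.0266) were called. On embryos of F1 mothers alone, where 0.784% of genes were called, no member was, with Myog nearest at an adjusted p of 0.058. Slopes with F1 mothers were 0.09 ± 0.08 for Chrna1, 0.07 for Myod1, 0.11 for Myog and 0.03 for Mef2c. Those with B6 mothers were 0.18, 0.11, 0.08 and 0.07 in the same order. The difference in slope between the mothers did not pass the test for any member, with adjusted p from 0.916 to 0.995, where 0.00704% of all genes were called. Between the F1 crosses the adjusted p of the same difference was 0.216 to 0.970, against 16.6% of genes called.

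Without the lane term, rank correlation over the 147 N2 embryos gave another picture for Des and Mef2c. At a mean of at least 5 RPM, 21.9% of 10040 genes were called at q under 0.05. Myog had the closest relation (Spearman rho = 0.594, q = 5.69e-13, permutation p = 1e-05, the smallest that the permutations could give), with Pearson r = 0.400 (permutation p = 1e-05) and r = 0.394 once the 2 embryos of most extreme stage were left out. Myod1 had rho = 0.282 (q = 0.00521, permutation p = 0.00061), r = 0.230 (permutation p = 0.00502) and 0.255 without 2 embryos. Des had rho = 0.278 (q = 0.00617, permutation p = 0.00072), r = 0.263 (permutation p = 0.00132) and 0.249 without 2 embryos. Once lane was regressed out, which left 11.5% of genes called, rho was 0.507 for Myog, 0.391 for Myod1 and 0.0727 for Des (q = 0.668). Mef2c went from rho = 0.176 (q = 0.106) to 0.274 (q = 0.0177) by the same step. Within single lanes, rho with somite number was above 0 in 12 of 14 lanes for Myog, 11 for Myod1, 11 for Mef2c, 13 for Chrna1 and 6 for Des. The pooled relation of Des with stage therefore did not hold within lanes. The pooled rho of Myod1 varied between subsets of the embryos. It was 0.66 in flowcell 1 (q = 1.22e-07, 17.8% of genes called) and 0.012 in flowcell 2 (q = 0.936, 39.1% called). With F1 mothers alone it was 0.553 (q = 0.000229, 23.1% called), and with B6 mothers alone 0.0412 (q = 0.763, 51.3% called). These differences were not tested.

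Levels of Des stood apart in a single lane. In lane J, Des ran from 438 to 1007 RPM with a median of 643 RPM over 11 embryos, against lane medians from 80.8 to 243 RPM in the other 13 lanes. Every embryo of lane J lay above every embryo of the other lanes, the highest of which read 431 RPM. This lane also had the lowest depth, with a median of 577807 reads, and all 11 of its embryos had B6 mothers. The highest Myog value, 324 RPM, came from the same lane. Summed heart markers had medians of 516 RPM in lane J and 808 RPM in the other lanes, and smooth muscle markers 171 and 242 RPM. Endothelial markers had medians of 203 and 154 RPM, and neuron markers 1265 and 853 RPM. The part of these markers and of depth in the level of Des was not tested.

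**Figure D4:**
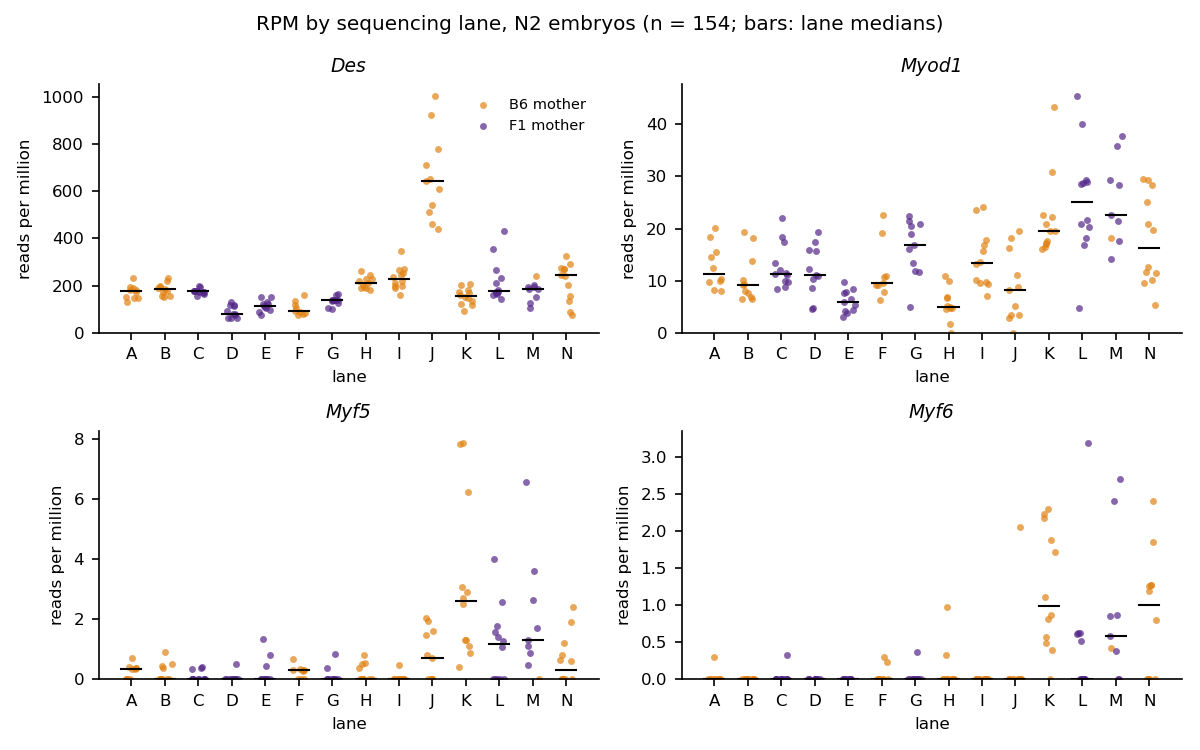
RPM of Des, Myod1, Myf5 and Myf6 in each N2 embryo by sequencing lane (A to N), with bars at the lane medians. Des is highest in lane J, and reads of Myf5 and Myf6 are most frequent in lanes K to N.

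Lane also bore on the comparison of mothers, because only lane M held embryos of both. Des averaged 245 ± 178 RPM (SD, n = 89) with B6 mothers and 151 ± 61.3 RPM (n = 65) with F1 mothers (Mann-Whitney test, Bonferroni-adjusted p = 0.00737), in a comparison that called 5.03% of 9733 genes. Embryos of B6 mothers ran from 73.8 to 1007 RPM (median 193) and those of F1 mothers from 61.3 to 431 RPM (median 150), so the groups overlapped. Without lane J the means were 186 and 151 RPM, and the Bonferroni-adjusted p was 0.536 (5.53e-05 before adjustment, 3.1% of genes called). The chance that an embryo of a B6 mother exceeds one of an F1 mother was 0.734 with lane J and 0.696 without it. By edgeR, Des was higher with B6 mothers by 0.69 log2 units (adjusted p = 9.15e-07, 19.2% of genes called), and by 0.78 with somite number in the fit (adjusted p = 6.49e-09, 24.2% called). Means were 157 and 130 RPM within flowcell 1 and 289 and 200 RPM within flowcell 2, each at an adjusted p of 1. In lane M, Des was 242 RPM in the single embryo of a B6 mother and 104 to 204 RPM in the 8 of F1 mothers. Mother and lane thus cannot be told apart for Des. Myod1 averaged 13.1 RPM with B6 mothers and 16.0 RPM with F1 mothers, Myog 71.2 and 62.4 RPM and Mef2c 36 and 35.4 RPM, none of which passed the test. Myod1 means were 11.6 and 11.8 RPM within flowcell 1, and 13.9 and 25.5 RPM within flowcell 2. For flowcell 2 the Mann-Whitney p was 2.54e-05 (Bonferroni-adjusted p = 0.26, 0.254% of genes called). Here too mother and lane cannot be told apart.

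Myf5 and Myf6, the neighbouring early determination factors, were near the limit of detection. In N2 the floor set by 3 reads was 1.31 RPM at the median embryo. Myf5 gave 229 reads over 154 embryos, with at least 1 read in 69 (44.8%, exact binomial interval 36.8 to 53.0%) and 3 or more in 22. Myf6 gave 95 reads, with at least 1 in 38 embryos (24.7%, 18.1 to 32.3%) and 3 or more in 11. More embryos lacked a read than Poisson counting at the pooled level gives, 85 against 41.8 for Myf5 and 116 against 85.8 for Myf6. Reads were thus spread unevenly over embryos. Intervals and floors cover counting error only. In F1, where the floor was about 0.1 RPM at the median embryo, Myf5 was read in all 16 embryos (219 reads) at 0.261 to 0.783 RPM, and Myf6 in 14 of 16 (44 reads) at 0 to 0.160 RPM. The ranges of the crosses overlapped for both.

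The uneven spread went with lane. Lanes K to N, singled out after their values were seen, held 27.7% of the N2 depth, 80.8% of the Myf5 reads and 91.6% of the Myf6 reads. Pooled levels in these 45 embryos and in the other 109 were 1.97 and 0.180 RPM for Myf5 and 0.926 and 0.0327 RPM for Myf6. The same lanes held 42.7% of the Myod1 reads (22.9 and 11.8 RPM), 38.5% of the Mef2c reads, 28.7% of the Des reads and 23.7% of the Myog reads. Pooled Myod1 was thus higher in these lanes as well, while Myog was lower there (56.6 and 70 RPM). Chrna1 was read in 134 of 154 embryos (87%, 80.7 to 91.9%), with 20 embryos lacking a read against 14.0 by Poisson counting. Myod1 lacked reads in 2 embryos, and Myog, Mef2c and Des were read in every one.

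The 2 alleles were compared next, from reads that cover SNPs between B6 and Cast, given as votes. The B6 allele fraction (BAF) is B6 votes over B6 plus Cast votes. Chrna1 carried more Cast than B6 transcript in heterozygous N2 embryos, and in F1 most clearly in the oldest litter. Over F1, Chrna1 had 112 B6 votes and 199 Cast votes, a pooled BAF of 0.360 (exact binomial interval 0.307 to 0.416). Its BAF per F1 embryo ran from 0.242 to 0.625 with a median of 0.396 and a mean of 0.417 ± 0.123 (SD, n = 16). The Cast allele was higher in 11 of the 16, with 2 ties (exact sign-flip permutation test on votes scaled to depth, p = 0.00879). The 3 embryos of the oldest litter held 141 of the 311 votes, at a pooled BAF of 0.27 (0.198 to 0.351). Without them, an alternative added after the values were seen, the pooled BAF was 0.435 (0.359 to 0.513), Cast was higher in 8 of 13 embryos and the exact sign-flip permutation p was 0.0703. In Cast × B6 embryos the pooled BAF was 0.439 (0.336 to 0.548), and the litter of 41 to 43 somites stood at 0.52 (0.374 to 0.663). Its other litter stood at 0.341 (0.201 to 0.506), with Cast higher in 3 of 4 embryos and B6 in 0. The younger B6 × Cast litter stood at 0.43 (0.319 to 0.547), with Cast higher in 4 of 5 embryos. The F1 votes of Chrna1 outside the oldest litter were thus not distinguishable from balance at this depth. Among N2 embryos heterozygous at Chrna1, 17.0 B6 and 112 Cast votes gave a pooled BAF of 0.132 (0.0787 to 0.203), and Cast was higher in 45 of the 49 embryos with votes. The pooled fraction was 0.108 with B6 mothers and 0.156 with F1 mothers. The paired test over 95 F1 and N2 embryos called Chrna1 (Bonferroni-adjusted p = 1.38e-06), as it called 20.2% of 9084 genes, while over F1 embryos alone the adjusted p was 1. The difference in BAF between the generations was not tested, and votes per N2 embryo were few.

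Mef2c had a mean BAF of 0.340 ± 0.120 in F1, from 0.0704 to 0.5, with Cast higher in 15 of 16 embryos and 1 tie (exact sign-flip permutation test, p = 6.1e-05). Its F1 votes were 2122 for B6 and 3497 for Cast, a pooled BAF of 0.378, which was 0.341 without the oldest litter (Cast higher in 12 of 13 embryos). In N2, 273 B6 and 346 Cast votes gave a pooled BAF of 0.441 (0.401 to 0.481), with Cast higher in 28 embryos and B6 in 25. Over both generations the paired test gave a Bonferroni-adjusted p of 1, and a Benjamini-Hochberg-adjusted p of 0.000679. Myog lay nearer to balance than Mef2c in F1, at 0.480 ± 0.0236 (Cast higher in 12 of 16 embryos, exact sign-flip permutation p = 0.00467). In N2 it did not, with a pooled BAF of 0.440 (0.420 to 0.461), Cast higher in 48 embryos and B6 in 17. The paired test over both generations gave Myog a Bonferroni-adjusted p of 0.841 and a Benjamini-Hochberg-adjusted p of 0.000292. Its mean BAF over both fell inside 0.45 to 0.55, where no call is made. Myod1 had 552 B6 and 499 Cast votes in F1 (exact sign-flip permutation p = 0.24) and a mean BAF of 0.502 over both generations. Des could hardly be read this way, with 210 votes from 53237 F1 reads, 99 for B6 and 111 for Cast. Myf5 had 27 F1 votes and Myf6 had 3. In N2 embryos that the genotypes give as B6/B6, Cast votes were 3.5 of 928 for Myod1, 2 of 2989 for Myog, 3 of 555 for Mef2c, 0 of 46 for Des and 0 of 33 for Chrna1, the background of the vote counts.

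**Figure D5:**
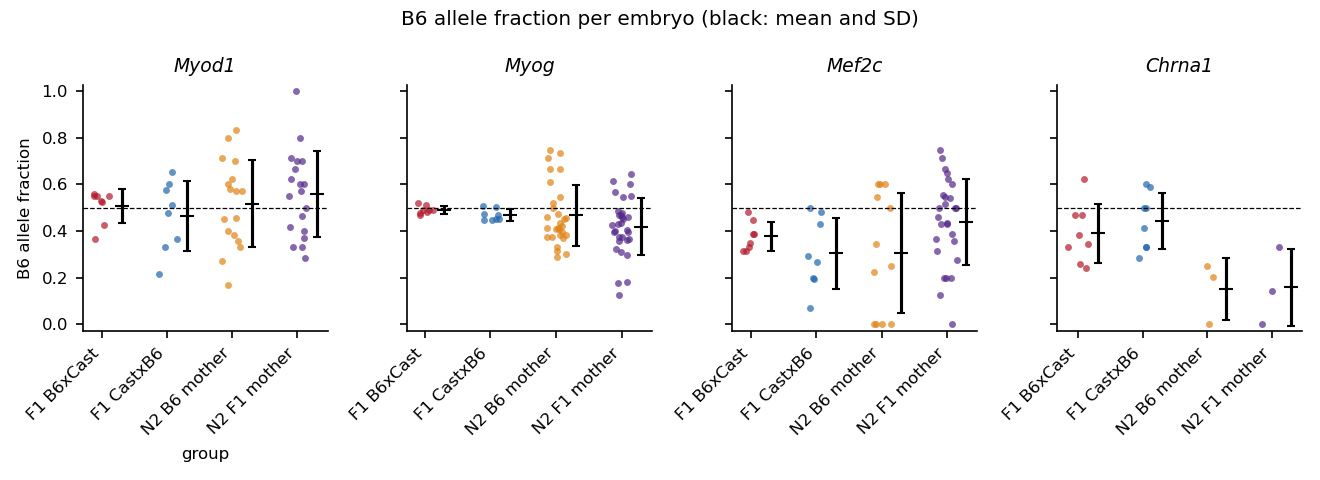
B6 allele fraction of Myod1, Myog, Mef2c and Chrna1 in each F1 embryo by cross and in each heterozygous N2 embryo with at least 5 votes by mother, with means and SD in black. Mef2c lies below 0.5 in 15 of 16 F1 embryos and Chrna1 in 11 of 16, and Chrna1 lies lowest in N2, while Myod1 scatters around 0.5. Myog lies near 0.5 in F1, and over all 67 N2 embryos with votes Cast was higher in 48.

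Between the reciprocal F1 crosses, no member was called for a difference in BAF. Such a difference could follow the parent of origin, but also stage, litter or run, which differed between the crosses. The mean BAF of Myog was 0.491 with B6 mothers and 0.469 with Cast mothers (exact permutation test, p = 0.0589, adjusted p = 0.447). Mef2c had 0.377 and 0.304, and Chrna1 0.390 and 0.444, with adjusted p of 0.698 and 0.807 by the same exact test. Of all genes, 1.02% were called. The smallest p this test allows is 0.0001554. With somite number, BAF of Myog had rho = 0.022 over 34 heterozygous N2 embryos with at least 20 votes (q = 0.99), in a test that called 0.299% of 3342 genes, and other members had too few votes.

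Whether embryos heterozygous at a member differed in its total level was asked in N2, with lane and somite number regressed out. At a mean of at least 5 RPM, 25.3% of 9762 genes were called, and no member was. Des came nearest, with heterozygotes higher by 0.16 on the log2(RPM + 0.5) scale (q = 0.0508), followed by Mef2c at -0.13 (q = 0.154), Myog at 0.10 (q = 0.21) and Myod1 at -0.16 (q = 0.598). Chrna1 is under that minimum. At a minimum of 1 RPM, where 23.2% of 12732 genes were called, Chrna1 was higher in heterozygotes by 0.57 (q = 6.58e-05). Its level was 2.00 ± 1.57 RPM (SD, n = 76, median 1.84, from 0 to 8.06) in heterozygotes and 1.09 ± 1.12 RPM (n = 71, median 0.761, from 0 to 6.92) in B6/B6 embryos, and the groups overlapped. The difference was 0.62 with B6 mothers alone (q = 0.00726, 12.5% of genes called) and 0.54 with F1 mothers alone (q = 0.0251, 13.5% called). In N2, total level and allele votes of Chrna1 thus both lay toward the Cast allele, in measurements that share their reads.

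Genes of the muscle programme around the members were counted in the same fits, in lists chosen with earlier results of these data known. Of 10 differentiation targets tested, 6 rose and 0 fell with somite number in N2, with a median slope of 0.08 against a median of -0.00426 over all genes, and 3 rose in F1, with a median of 0.05 against 0.00407. Tmem8c (myomaker, a membrane protein of myoblast fusion) rose by 0.13 per somite in N2 (edgeR adjusted p = 1.62e-06) and by 0.08 in F1 (adjusted p = 0.00475). Cacna1s, the muscle calcium channel, rose by 0.16 in N2 (adjusted p = 5.12e-06) and by 0.08 in F1 (adjusted p = 0.0206). Tnnc1, the slow and cardiac troponin C, rose by 0.05 in both (adjusted p = 0.00594 and 0.0161). Of 4 acetylcholine receptor and synapse genes tested beside Chrna1, 2 rose in N2 and none passed in F1, with medians of 0.12 and 0.07. These were the receptor subunits Chrng (0.15, adjusted p = 9.73e-09) and Chrnd (0.18, adjusted p = 3.36e-05).

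Of all genes, 4.87% rose and 3.85% fell in N2, and 4.61% and 3.02% in F1. The other lists gave at most 1 call each in N2. In F1 the most calls were 3 of 12 progenitor factors falling, 2 of 7 heart markers falling and 2 of 4 smooth muscle markers rising. These are shares above those of all genes, in lists of few genes. Whether the other lists differ from all genes or from the differentiation targets was not tested. Of 12 progenitor and premyogenic factors, 1 rose and 0 fell in N2, and 3 fell and 0 rose in F1, with a median of -0.03 in both. The riser was Msc (musculin), a helix-loop-helix repressor, at 0.13 per somite (edgeR adjusted p = 4.94e-08). The F1 fallers were Pax3 (-0.09, adjusted p = 0.00175), Six4 (-0.10, adjusted p = 0.0253) and Pax7 (-0.07, adjusted p = 0.0459), and in N2 Pax3 had a slope of -0.07 (adjusted p = 0.0746). None of 3 E proteins, the helix-loop-helix partners of the members, was called in either generation. Of 7 inhibitors of myogenic factors tested, 1 was called in N2, Twist2, which rose by 0.07 (adjusted p = 0.0039), and 0 in F1. Among 6 genes of the MEF2 family and its coregulators, Vgll2 rose in N2 (0.09, adjusted p = 0.0281) and Mef2d fell in F1 (-0.07, adjusted p = 0.0317). Of 3 intermediate filament partners of Des, Nes (nestin) fell in both generations, by 0.08 per somite in each (adjusted p = 1.3e-09 in N2 and 0.00741 in F1). Heart markers had 0 rising and 1 falling of 7 in N2 and 0 rising and 2 falling in F1, and the 4 smooth muscle markers had 0 called in N2 and 2 rising in F1. None of the 5 endothelial or 4 neuron markers was called in either fit.

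Likeness of pattern was described by Spearman's rho over the 154 N2 embryos after lane was regressed out, among 10007 genes that share libraries and depth with the members. Myog was most like Acta1 (skeletal alpha-actin, rho = 0.68), Gnb2 (0.67) and Cbx6 (0.67). Myod1 was most like Rtn1 (0.64), Tal1 (0.63) and Peg13 (0.62), and its rho with Myog was 0.31. Mef2c was most like Mbnl2 (0.67), Col27a1 (0.66) and Usp29 (0.64). Des was most like Eng (0.75), Zfp428 (0.74) and Ephb3 (0.73), and its rho with Myod1 was -0.16.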

How the data were processed

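Whole E11.5 embryos of 2 generations were sequenced by 3SEQ. The authors trimmed poly(A) stretches, mapped reads with Bowtie2 to mm9 and to a Cast genome made by applying SNPs to it, and deposited raw counts on the exons of RefSeq genes, with no normalization. F1 counts sum 2 runs per embryo. The authors also deposited allele votes, estimated counts in which a read over several SNPs is shared between them, and genotype codes (a score of 0, 0.5 or 1 per gene) from a hidden Markov model. Depth bounds the lowest members, and intervals cover counting error only.

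The members and gene lists were chosen with earlier results of these data known. All 7 members are named, with up to 3 genes of smallest p per list and fit and the 3 genes most like each member over 5 RPM. Counts were divided by total reads on genes to give RPM. Expression was fitted with edgeR 4.0.16 in R 4.3.3 (TMM, quasi-likelihood, at least 0.5 RPM), with DESeq2 1.42.0 and limma 3.58.1 as alternatives. Rank, permutation (100000 resamples, two-sided) and exact tests used scipy 1.17.1 in Python 3.11.15. Thresholds were an adjusted p or q under 0.05, 0.1 where BAF was set against stage, and a Bonferroni-adjusted p under 0.01 for mother and allele tests. The paired allele test used a minimum of 20 votes per cross. The scripts were tested on simulated data. Of 168 N2 columns, 160 matched an embryo and 154 of these had genotypes, while 8 had no group in the labels and entered no comparison. Nothing in the labels gives separate cultures or animals beyond the embryo and its litter, so p-values measure the spread between embryos. Alternatives changed the filter, scaling, lanes, litters, mothers and tools.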

Additional observations from a re-analysis of the deposited data

Results flagged for a closer look

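Groups of 4 to 10 F1 embryos were examined for a sample far from the rest in RPM or BAF, 34 groups in all, and chance flags about 1 in 20 such groups. Myf6 stood at 0.0410 RPM in one Cast × B6 embryo, below the other 7, but this was 1 read against 2 to 6 reads in the others. Des had a BAF of 1 in one B6 × Cast embryo, which rested on few votes.

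Of the 8 N2 columns that the labels put in no group, 7 had under 100000 reads and 1 had 1210811. That sample held 6 Myod1, 79 Myog, 43 Mef2c and 115 Des reads, above the limit of 3 counts that a count of 0 allows, and 1 Chrna1 read. It entered no comparison.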

How the results depend on the processing

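No result of a member reversed its direction past a threshold. Of 266 values of members recomputed under alternatives, 217 kept their call, or their lack of one, or stayed inside their interval. Another 33 lost a call, 8 gained one and 8, which are shares of embryos with a read or a pooled BAF, moved past their interval. Direction was compared only where a call was made, so some uncalled values among the 217 changed sign. The Des slope in N2, for example, was 0.01 in the main fit and -0.02 in flowcell 1. Without the oldest litter the pooled F1 BAF became 0.435 for Chrna1 (0.360 with it) and 0.341 for Mef2c (0.378). The cause of these shifts was not tested. Calls against somite number over N2 (2200 by rank correlation) became 1150 with lane regressed out, 4116 in flowcell 2, 5162 with B6 mothers and 176 over litter means, and the split of 1405 rising and 795 falling became 1074 and 981 with TMM-scaled values. The edgeR count in N2 (1238) became 4231 without the lane term, 139 with litter fixed, 655 with B6 mothers, 111 with F1 mothers and 322 in flowcell 2. In F1 (1080) it became 1844 with DESeq2, 2766 without the oldest litter, 2055 in Cast × B6 alone and 2988 without the cross term. By mother (490) it became 2722 with edgeR, 3440 with somite number added, 225 and 26 within flowcells 1 and 2, 2077 after Benjamini-Hochberg adjustment and 300 without lane J. Mann-Whitney tests of litter means and lane means called 0, while 1273 and 274 genes had p under 0.05 before adjustment. These p-values came from a normal approximation. With it and so few means, even full separation of the mothers cannot reach the Bonferroni threshold, so these 0 calls carry no information. Allele-specific calls (1834) became 1096 over F1 alone and 3182 after Benjamini-Hochberg adjustment, and reciprocal calls (108) 47 by a binomial test. BAF against somite number (10) gave 2 with lane regressed out, 17 at 10 votes, 63 with B6 mothers and 2 with F1 mothers. Calls by genotype (2474) became 1404 and 1515 with B6 and F1 mothers, and 1598 with B6 mothers at 1 RPM. Over all matched embryos, 0 members were read in every one, against 3 in the main set. Without the lane term the Des slope in N2 was 0.09 (edgeR adjusted p = 2.36e-05), and with DESeq2 Myog was called in F1 (adjusted p = 0.0368). Leaving out lane J, the oldest litter from the pooled BAF, separate slopes per mother or cross, and the genotype test at 1 RPM by mother were chosen after seeing the data. No paired analysis was possible because replicate numbers in the labels do not tie embryos of one group to those of another. Depth limits Myf5, Myf6 and Chrna1 in single N2 embryos.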
